A study of Mus musculus with 8 samples.

Results

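Cell cycle genes were followed across sorted vascular cells of the mouse mesentery and epididymal fat. The set held 40 genes, matched by symbol and gene ID in all 8 libraries, out of 30406 genes that both runs shared. It comprised 9 genes of DNA replication, 28 genes of mitosis (cyclins, Cdk1, kinases, centromere and spindle proteins, anaphase-promoting complex partners and the markers Mki67 and Top2a) and Stmn1, Hmgb2 and Tubb5, which many non-dividing cells also express. Cells were then counted by how many of the 40 genes had at least 1 UMI (a counted mRNA molecule), and 1619 of 23216 barcodes had 5 or more. All 40 genes had enough counts to be tested in the sums over all cells and over all endothelial cells.

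All mice were male and carried ROSA26-eYFP+/+ and Cdh5-CreERT2+, so that a tamoxifen-activated Cre driven by the endothelial Cdh5 promoter switched on a yellow fluorescent reporter. They received tamoxifen in the diet for 2 weeks from 6 weeks of age. From 8 weeks they were kept for 12 to 13 weeks on chow with 5.8% fat or on the high fat diet (HFD) with 60% fat, and mesentery and epididymal fat were digested with Actinomycin D, a transcription inhibitor, in the buffers. Each library pooled 6 mice and aimed at 5000 sorted cells, and the 4 groups (mesentery or fat, chow or HFD) were each prepared in 2 runs, A and B. Reporter, Cre and tamoxifen were common to every group, so no group lacks them, and each group has n = 2 pools.

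Run B gave more cells in every group, 2930 to 5411 barcodes per library with median depths of 3391.5 to 4606 UMIs, against 980 to 1877 barcodes at 1456 to 3429 UMIs in run A. Its cells were deeper in 3 of the 4 groups, while in mesentery on chow the medians were 3429 UMIs in run A and 3391.5 in run B. Over all libraries 27944 barcodes were deposited. The mitochondrial limit of 10% removed 22.8% to 30.8% of barcodes in run A and 5.42% to 8.96% in run B. Of 23143 barcode sequences, 71 occurred in more than 1 library. Cell classes were rebuilt from marker genes without using any of the 40 genes, so a class name is a label of this re-analysis. All 8 endothelial markers were found in every library, and 19036 of the barcodes used were grouped as endothelial by these markers, with 738 macrophage-like barcodes among the rest. The 19036 include 3 unnamed clusters that also met the limits of another marker list. One of 862 barcodes was led by adipocyte genes such as Cfd, Adipoq and Retn. Another of 846 was led by mural genes such as Pdgfrb, Notch3 and Kcnj8. The cluster of 1634 had raised erythroid markers at a median of 969 UMIs. A capillary-like cluster of 2455 barcodes also met the adipocyte limits, and an arterial-like cluster of 1885 the erythroid limits. Both kept their class names and were not among the unnamed clusters left out below.

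A dividing cell copies its DNA and then separates the copies in mitosis. Replication genes such as the Mcm helicase subunits, the ribonucleotide reductase subunits and thymidylate synthase (Tyms) are switched on as cells enter S phase, while cyclins B, Cdk1, Aurora and Plk1 kinases, centromere proteins and spindle motors peak in G2 and M. Endothelium in adult vessels is mostly quiescent, and capillary sprouting and tissue macrophages are among the known sources of division in adipose tissue.

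Promoter sequences were taken from RefSeq (GRCm38.p6), 300 bases around the annotated start, for 35 of the 40 genes. They are shown because mitotic and replication genes carry different known elements. The CHR letters TTTGAA, searched on both strands, occurred in 19 of 24 mitotic promoters (79.2%) and 1 of 9 replication promoters (11.1%), against 18.1% of all 27025 promoters of the same length. CCAAT, also on both strands, occurred in 22 of 24 mitotic (91.7%) and 7 of 9 replication promoters (77.8%), against 37.9% of all. The E2F letters TTGGCGC were found in 3 of 9 replication (33.3%) and 3 of 24 mitotic promoters (12.5%), against 2.54% of all, and TTCCCGC in 2 of 9 (22.2%) and none of 24, against 4.66%. TTGGCGC and the reverse of CCAAT share letters and can overlap. The last 120 bases before the start are printed for 3 mitotic genes, which are described below, and for the replication gene Mcm6, 5′ to 3′ along the gene. Capitals mark the CCAAT, CHR and E2F letters on either strand. In Cdk1 TTTGAA begins at positions -71 and -15 counted from the start, and in Mcm6 TTGGCGC begins at -109 and -46.
Cdk1 (chr10:69352913-69353032, minus strand): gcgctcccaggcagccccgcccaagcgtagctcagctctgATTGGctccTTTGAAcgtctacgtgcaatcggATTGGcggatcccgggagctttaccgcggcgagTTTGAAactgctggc
Ube2c (chr2:164769809-164769928, plus strand): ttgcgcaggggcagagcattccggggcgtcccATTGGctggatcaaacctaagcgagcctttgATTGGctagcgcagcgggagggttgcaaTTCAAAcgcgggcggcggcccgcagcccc
Top2a (chr11:99024190-99024309, minus strand): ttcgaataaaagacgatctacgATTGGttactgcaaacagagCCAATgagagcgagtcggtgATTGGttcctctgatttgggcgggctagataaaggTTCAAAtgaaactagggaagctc
Mcm6 (chr1:128359706-128359825, minus strand): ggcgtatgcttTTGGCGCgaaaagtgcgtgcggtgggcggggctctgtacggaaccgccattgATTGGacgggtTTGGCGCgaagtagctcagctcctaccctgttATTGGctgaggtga
Of the promoters printed, the first 3 hold the CHR letters and the last does not. These matches describe letters in a window, and no binding was measured.

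A few of the 40 genes carried most of the counts. Stmn1, Hmgb2 and Tubb5 together held 61.2% of all UMIs of the set, Tubb5 alone 37.2%, and with Pcna 69.2%; the 9 replication genes held 19.9%. Tubb5 (a beta tubulin) and Hmgb2 (a chromatin protein) belong to families of similar genes. Whether reads of such genes were mixed was not checked, so their counts may be uncertain. Most barcodes held very few of the genes: 5072 had none, 6505 had 1, 5243 had 2 and 3150 had 3. Just under the 5-gene threshold 1627 barcodes had 4, and just above it 783 had 5. Only 46 barcodes had 9 genes and 32 had 10, and 230 had 10 or more, up to all 40.

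**Figure D1:**
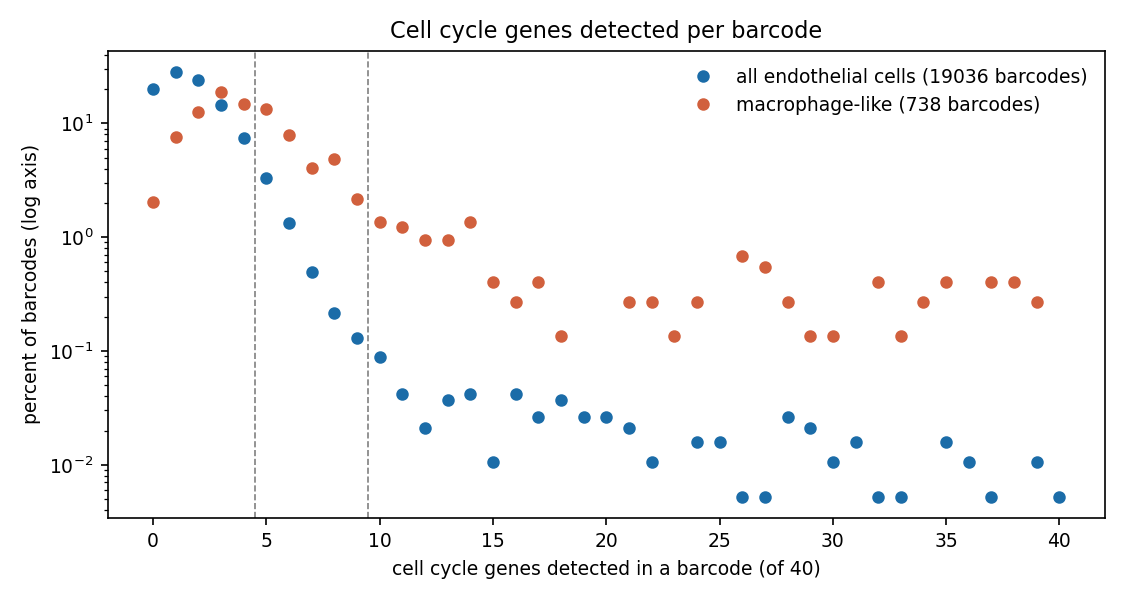
Percent of barcodes (log axis) by how many of the 40 genes had at least 1 UMI, for all endothelial cells and for macrophage-like cells. Dashed lines stand just below 5 and 10 genes. Endothelial barcodes number 635 at 5 genes, 25 at 9 and 17 at 10, with a tail reaching 40. Macrophage-like barcodes number 99, 16 and 10, with a tail reaching 39.

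Barcodes with 5 to 9 genes and those with 10 or more differed in which genes they held. The 1389 barcodes with 5 to 9 genes had a median of 11597 UMIs, against 3152 in the 21597 barcodes with fewer than 5, and held a median of 3 of the 4 broadly detected genes (Stmn1, Hmgb2, Tubb5, Pcna) and 1 mitotic gene. The 230 barcodes with 10 or more were nearly as deep (median 13282.5 UMIs) but held 10 mitotic and 4 replication genes. Mki67, the gene of the Ki-67 proliferation antigen, was detected in 67.0% of barcodes with 10 or more, 5.18% of those with 5 to 9 and 0.259% below 5. Top2a, the topoisomerase that untangles DNA before division, followed at 68.7%, 6.41% and 0.560%, and Birc5, the survivin subunit of the chromosomal passenger complex, at 67.4%, 3.89% and 0.204%. Tubb5 by contrast was in 96.5%, 96.3% and 54.8%. Detection of these genes defined the counts, so these shares describe the sets and are no test.

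Among endothelial cells, 1167 barcodes had 5 or more genes and 115 (0.604%) had 10 or more. Of these 115, 103 had at least 5 of the 28 mitotic genes, 64 had at least 3 of the 8 replication genes other than Pcna, and 54 had both. Thinned to 1000 UMIs per cell, which removes the depth difference and leaves out 2705 shallower cells, mitotic genes were seen together. Top2a was detected in 77 of 17072 thinned endothelial cells. Mki67 was found in 33.8% of these 77 and 0.188% of the others, Prc1 (a midzone spindle bundler) in 27.3% and 0.188%, and Bub1 (a spindle checkpoint kinase) in 7.79% and 0.0118%. Tk1, a thymidine kinase of S phase, was in 9.09% and 0.118%. Pcna (19.5% and 5.18%) and Mcm3 (7.79% and 2.04%) differed less, as did Tubb5 (50.7% and 25.3%). Cells within a library are not replicates, so these shares carry no p.

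**Figure D2:**
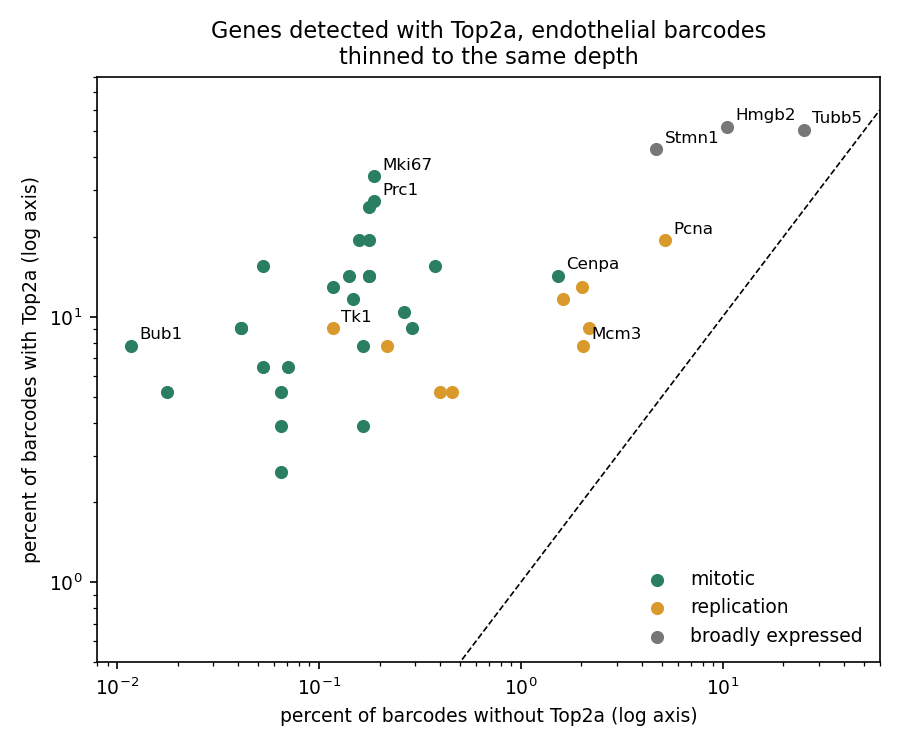
Percent of thinned endothelial cells with each gene, in the 77 cells with Top2a and in the others (log axes), 1 point per gene; Aurka, in 0 of the 77, is not drawn. Mitotic genes such as Mki67 (33.8% against 0.188%) lie far from equality, and Tubb5 (50.7% against 25.3%) lies close to it.

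Genes outside the 40 differed between the same cells and the rest. Between endothelial barcodes with 5 or more genes and the rest, 29 of 35 other mitotic genes with enough counts had a summed CPM ratio above 2 (median 5.52), as did 10 of 24 other replication genes (1.64), against 4.19% of all genes. At 10 or more genes, a threshold chosen after seeing the data, 32 of the 35 had a ratio above 2 (median 41.1), and so did 21 of the 24 (5.35). These ratios pool the libraries, and 52 of the 115 barcodes came from the run B fat library on chow. Higher in every library were 2 of the 35 and 0 of the 24. Over all 13784 genes, 9.36% had a ratio above 2 and the median ratio was 0.985. Of 17 G1 and arrest genes, 3 had one above 2 (median 1.07), namely E2f1 (6.40), Cdkn2a (5.01) and Rbl1 (2.45). Ccnd2, a D-type cyclin, was lower (ratio 0.574), as was the Cdk inhibitor gene Cdkn1c (0.584). The Cdk inhibitor genes Cdkn1a and Cdkn1b stood at 1.00 and 1.01. At 5 or more genes the ratios of Ccnd2 and Cdkn1c were 0.987 and 1.07. Outside every list, Ckap2, a spindle protein, had a ratio of 96.4 and Hmgn2, a nucleosome binding protein, 7.79; both were picked from genes higher in every library, by their ratio. Macrophage markers, 10 in all, stood at 92.8 CPM in the 115 barcodes and at 93.3 CPM in those with fewer than 5 genes. Macrophage-marker UMIs of 5 or more were found in 7 of the 115 (6.09%) and 67 of the 1052 with 5 to 9 genes (6.37%). Among barcodes with fewer than 5 genes the share was 1.46%. Median depths were 10775, 10746.5 and 3362 UMIs in the same order, so only the first 2 shares compare cells of like depth. The part of macrophage-marker UMIs in the result was not tested.

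Macrophage-like cells held the highest share of cells with many of these genes. They were 3.18% of cells but 328 (20.3%) of the barcodes with 5 or more genes and 89 (38.7%) of those with 10 or more, while endothelial cells were 82.0% of all and supplied 115 (50.0%) of the latter. In macrophage-like cells 12.1% had 10 or more genes (exact 95% binomial interval 9.80% to 14.6%), at a median depth of 13122.5 UMIs (3589.5 in endothelial cells). Because their cells were deeper, they were compared thinned as well. Thinned, 36 of 735 macrophage-like cells (4.90%; 3.45% to 6.72%) and 71 of 17072 endothelial cells (0.416%; 0.325% to 0.524%) had 5 or more, against 44.4% and 6.13% unthinned. Intervals cover counting error only. Adipocyte-like cells, a type that should lack mitotic RNA, served as a background: 0 of 466 thinned cells had 5 or more, which allows a share of up to 0.644% by a floor of 3 counts (exact 95% upper limit 0.788%), and 0.175% unthinned had 10 or more, at a median depth of 2016 UMIs. The chow libraries of run B held 316 and 242 of these 570 adipocyte-like barcodes and each other library 0 to 4, so the background says little of HFD or run A. The thinned endothelial share of 0.416% is below both limits, so it cannot be set apart from this background.

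Among the named endothelial classes the shares with 10 or more genes were capillary-like (0.589%), arterial-like (0.465%), lymphatic-like (0.430%) and venous-like cells (0.279%). The unnamed endothelial barcodes, which pool clusters of different kinds, stood at 1.06%, and 14 of their 48 such barcodes came from the adipocyte-led (8) and mural-led (6) clusters. Without these 2 clusters and the erythroid-marked one, 90 of 15694 endothelial barcodes (0.573%) had 10 or more genes. In thinned cells with 5 or more genes the unnamed class stood at 32 of 3550 (0.901%), arterial-like at 14 of 3202 (0.437%), lymphatic-like at 8 of 2217 (0.361%), capillary-like at 13 of 5120 (0.254%) and venous-like at 4 of 2983 (0.134%). No order between neighbouring classes is read from these shares. One small group of 268 barcodes in the unnamed class was marked by Prnd, Apln, Pgf, Kit, Mest and Nid2, several of them known from sprouting capillaries. Its 28 mitotic genes summed to 1090 CPM, the highest of the 28 clusters, and 22 of its barcodes (8.21%) had 10 or more genes. Thinned, 11 of 267 (4.12%) had 5 or more. These barcodes came unevenly from the libraries: 1 and 1 in mesentery run A (chow, HFD), 4 and 5 in fat run A, 6 and 71 in mesentery run B, and 131 and 49 in fat run B. Among endothelial cells they were 0.153% on chow and 2.72% on HFD in mesentery run B, against 2.75% and 1.43% in fat run B.

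**Figure D3:**
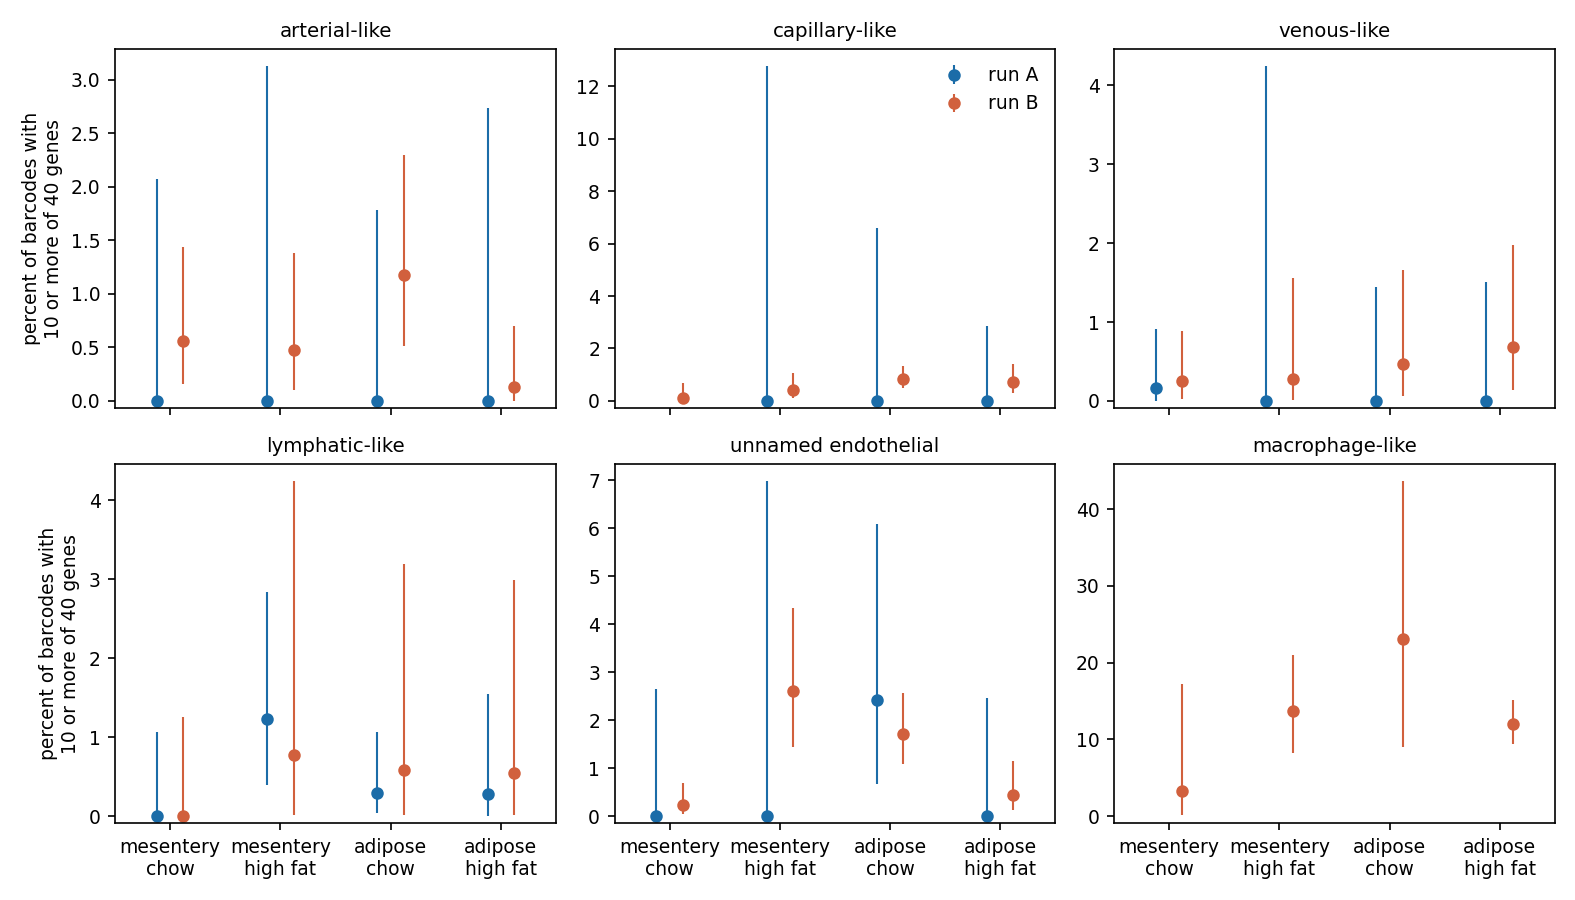
Percent of barcodes with 10 or more of the 40 genes, by cell class and library, with exact 95% binomial bars; libraries with fewer than 25 barcodes of a class are not drawn. Macrophage-like cells lie highest (12.1% over all libraries), and the endothelial classes lie at 0.279% to 1.06%.

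In summed counts, 32 of 35 tested genes rose in macrophage-like against endothelial cells, by edgeR's quasi-likelihood test with library as a block over 5 libraries (Benjamini-Hochberg adjusted p under 0.05), and none fell. The call rate over all 11495 genes was 46.4% in either direction, 18.9% for genes that rose, so the 40 genes stand above a high background. The median log2 difference was 2.32. Mki67 rose by 3.17 ± 0.35 (log2, SE; adjusted p = 1.29e-06), Aurkb, the passenger complex kinase, by 4.05 ± 0.36, and the passenger subunit gene Cdca8 by 3.63 ± 0.34. Among replication genes Tk1 rose by 3.42 ± 0.36 and Pcna by 1.52 ± 0.28. The 3 not called were Tyms (-0.20), Hmgb2 (0.73, adjusted p = 0.0780) and Tubb5 (0.51). In macrophage-like cells Mki67 stood at 3.40 CPM in mesentery on chow in run B (30 cells) and at 79.4 on HFD in run B (124 cells). In chow-fed fat it was at 42.3 CPM in run A, which is 1 UMI in 10 cells, and at 232 in run B (26 cells), where 6 barcodes held 382 of 390 mitotic UMIs and 1 barcode 55.9%, and with HFD 63.9 in run B (532 cells). All 5 of these libraries entered the test; the others held fewer than 10 such cells. DESeq2 called 30. Without the fat HFD library of run B, which held 532 of the 738 macrophage-like cells, 16 were called, and without a mitochondrial limit 18. For lymphatic-like against blood endothelial cells (arterial-, capillary- and venous-like together), 9 genes had enough counts and 2 rose, against 37.0% of all genes. This comparison left out the unnamed endothelial barcodes. Tyms rose by 0.97 ± 0.12 (adjusted p = 6.90e-05) and Tubb5 by 0.40 ± 0.10 (adjusted p = 0.00661).

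The share of endothelial barcodes with 10 or more genes was higher on HFD in both runs of mesentery and lower in both runs of fat. On chow in mesentery 0.0776% (run A) and 0.255% (run B) had 10 or more genes, and on HFD 0.729% and 0.883%. In fat the values were 0.445% and 1.09% on chow and 0.0991% and 0.497% on HFD. In mesentery both HFD libraries lay above both chow libraries; in fat the groups overlapped. The counts are small: 1 and 10 barcodes in mesentery on chow, 5 and 23 on HFD, 6 and 52 in fat on chow, 1 and 17 on HFD. With 2 pools a group the smallest p of an exact two-sided permutation test is 0.333, and no test was made. For 5 or more genes the unthinned endothelial shares were 4.27% and 4.77% in mesentery on chow, 4.23% and 10.1% on HFD, 0.741% and 8.75% in fat on chow and 0.694% and 5.84% on HFD. Thinned they were 0.0820% and 0.248%, 0.469% and 0.576%, 0.215% and 0.667%, and 0 of 684 and 0.395%, in the same order. Unthinned, run B was higher than run A in every group, and thinned it remained higher in each.

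The 28 mitotic genes summed over endothelial cells gave 83.3 and 78.8 CPM (UMIs of the gene scaled by the library's total; runs A and B) in mesentery on chow and 150.1 and 122.0 on HFD. In fat they gave 156.0 and 149.4 on chow and 44.4 and 94.5 on HFD. On HFD the mesentery sum was higher by 55.0 CPM (136.0 ± 19.9 against 81.1 ± 3.16, SD, n = 2) and the fat sum lower by 83.2 CPM (69.5 ± 35.4 against 152.7 ± 4.70), and neither pair of groups overlapped. The 9 replication genes did not divide the groups: 167.3 and 146.0 CPM in mesentery on chow, 155.7 and 161.9 on HFD, 178.8 and 149.2 in fat on chow, 152.5 and 158.9 on HFD. In bulk sums such as these, more dividing cells and more mitotic RNA per cell cannot be told apart.

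**Figure D4:**
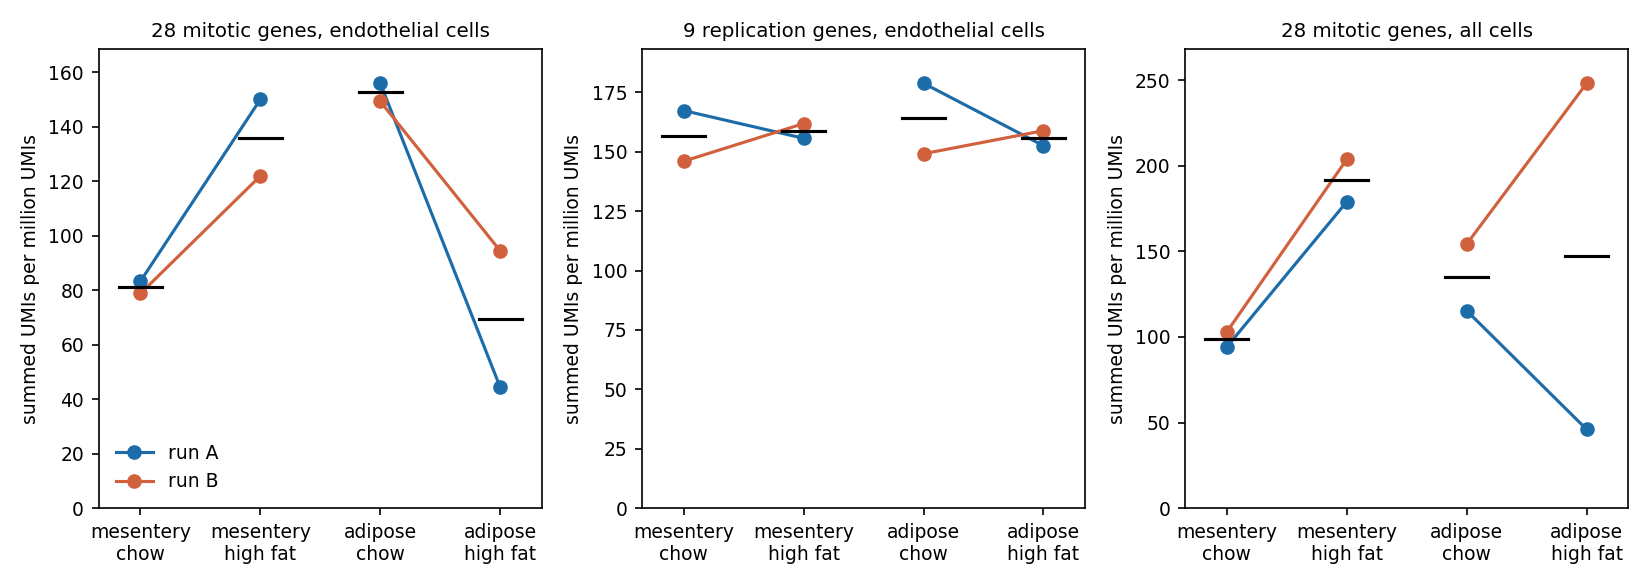
Summed CPM per library (points; lines join runs, black bars are means) for the 28 mitotic genes in endothelial cells, the 9 replication genes in endothelial cells and the 28 mitotic genes in all cells. In endothelial cells mitotic sums run from 44.4 to 156.0 CPM, with mesentery higher on HFD and fat lower, and replication sums run from 146.0 to 178.8 CPM.

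Few cells carried those sums. Barcodes with 10 or more genes held 15.5% and 53.2% of endothelial mitotic UMIs in mesentery on chow (runs A and B), 60.4% and 62.1% on HFD, 61.3% and 78.2% in fat on chow, and 9.78% and 55.7% on HFD. A single barcode held 15.5% to 32.0% of a library's mitotic UMIs in 7 of the libraries. These barcodes were chosen by the same genes, so the shares describe where the UMIs lay and do not test the diet difference. A lymphatic-like cluster held all 5 such barcodes of the mesentery HFD library of run A. Without that cluster the mesentery sums were 86.0 and 52.1 CPM on chow and HFD in run A, a difference of -33.9, and 80.6 and 122.8 in run B, a difference of 42.2, so run A turned and run B kept its direction. Without the Prnd and Apln cluster the mesentery difference was 37.6 CPM. The sums on chow and HFD were then 83.2 and 150.5 CPM in run A and 79.0 and 87.0 in run B. With that cluster they were 83.3 and 150.1 in run A and 78.8 and 122.0 in run B. Without the 3 unnamed clusters that met another marker list, the differences were 54.1 CPM in mesentery and -73.9 in fat. The direction was the same in both runs of each. The named capillary-like and arterial-like clusters that also met another list were kept in these sums.

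Markers of other cell types also differed with diet in these endothelial sums. The 8 adipocyte markers summed to 15.2 and 2793 CPM in mesentery on chow (runs A and B), against 4.41 and 169 with HFD. In fat they were at 29.5 and 5413 CPM on chow, against 22.2 and 73.1 with HFD. They were lower with HFD in both runs of both tissues; Lep was at 0 in 3 of the run A libraries, and Adipoq was at 0 in both mesentery libraries of run A. The 5 erythroid markers were higher with HFD in each pair, at 0.769 and 525 CPM against 12.4 and 536 in mesentery and 93.2 and 1362 against 306 and 2763 in fat. Alas2 was at 0 in both mesentery libraries of run A. The 10 macrophage markers were higher too, at 83.3 and 57.4 CPM against 155 and 80.2 in mesentery and 219 and 48.1 against 280 and 202 in fat, with Adgre1 and Csf1r at 0 in every run A library. The 9 mural markers were at 416 and 617 against 204 and 992 CPM in mesentery and 291 and 938 against 409 and 1032 in fat. The adipocyte, erythroid and macrophage lists thus moved the same way in both tissues, and the mural list was mixed between the runs of mesentery. Without endothelial barcodes with 5 or more macrophage-marker UMIs the mitotic differences were 56.2 CPM in mesentery and -80.7 in fat. The part of the adipocyte, erythroid and mural RNA beyond the clusters left out was not tested.

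Gene by gene, no member passed edgeR's quasi-likelihood test (adjusted p under 0.05) for diet in either tissue, for tissue on either diet or for the interaction, in endothelial or in all cells, where 0% of the 13428 and 14643 genes tested were called. With run as a block, 0 of 40 were called either, against 0.0372% of genes when the mesentery diets were compared (0.0149% rose, 0.0223% fell), 0.00745% when the fat diets were, 0.305% for tissue on chow and 0% for tissue on HFD and the interaction, in endothelial cells. At an unadjusted p under 0.05 there were 4, 0, 4, 1 and 5 members in these 5 comparisons (2.02%, 0.775%, 3.75%, 0.700% and 0.804% of all genes), and with the block 6, 3, 10, 2 and 11. Over all cells there were 3, 0, 1, 1 and 1 such members. DESeq2 also called 0 in each, with 4, 0, 4, 1 and 4 endothelial members at an unadjusted p under 0.05 and 5, 0, 1, 0 and 1 over all cells. Where a count at an unadjusted p, here or below, has no share over all genes beside it, nothing is read from it. Since the fit without the block called no gene at all, its lack of calls among the 40 does not show that they were equal between groups. The direction counts that follow describe these libraries.

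By direction in endothelial CPM, 26 of 40 genes were higher on HFD in both runs of mesentery (25.2% of all genes) and 2 were lower in both (26.5%). In fat 31 were lower in both runs (28.6%) and 2 higher (17.3%). Higher in mesentery and lower in fat, in both runs of each, were 22 of 40, against 5.33% of all genes. Without the 3 unnamed clusters that met another marker list these counts were 25, 3, 31, 1 and 20. They, and the counts by role below, were not made without the lymphatic-like cluster described above. Leaving out that cluster turned the direction of the mitotic sum in run A of mesentery (86.0 CPM on chow, 52.1 on HFD). Without overlap between the groups, 18 were above in mesentery (9.99%) and 23 below in fat (10.1%). Many of the genes were detected in the same cells, so they are not independent of each other. In fitted values the median log2 change in mesentery was 0.64 (31 of 40 positive; all genes 48.8%), and in fat -0.75 (5 positive; all genes 50.7%), and for the interaction 1.57 (34 positive). These medians were 0.67 and -0.75 with DESeq2's size factor method in edgeR. Without any 1 library the fat median ranged from -1.58 (without HFD, run B) to -0.40 (without HFD, run A).

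By role, the opposite pattern held in both runs for 7 of 9 spindle and cytokinesis genes (such as Kif20a, Kif23 and Tpx2), 4 of 5 centromere and passenger genes, 4 of 5 mitotic kinases and checkpoint genes (Aurka, Aurkb, Plk1 and Bub1), and all 3 anaphase-promoting complex genes (Cdc20, Ube2c and Cdca3). It held for 2 of 9 replication genes (Rrm1 and Mcm2), 1 of 4 cyclin and Cdk1 genes, 1 of 2 proliferation markers and none of the 3 broadly expressed genes. Fitted changes in mesentery ran from -0.17 to 1.77 for the spindle genes, whose median was 0.93, and from -0.19 to 0.49 for the replication genes, whose median was 0.16. In fat the medians were -1.08 and -0.10. Kif11 and Mcm6 were lower on HFD in both runs of mesentery, and Tyms and Tubb5 higher in both runs of fat. Of the mitotic genes outside the 40, 34 of 37 had enough counts and 0 were called for diet by edgeR (1 in each tissue at an unadjusted p under 0.05; DESeq2 was not run on them), with medians of 0.63 in mesentery and -0.52 in fat. For the 24 other replication genes tested the medians were -0.11 and -0.22, with 0 called and 0 at an unadjusted p under 0.05.

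**Figure D5:**
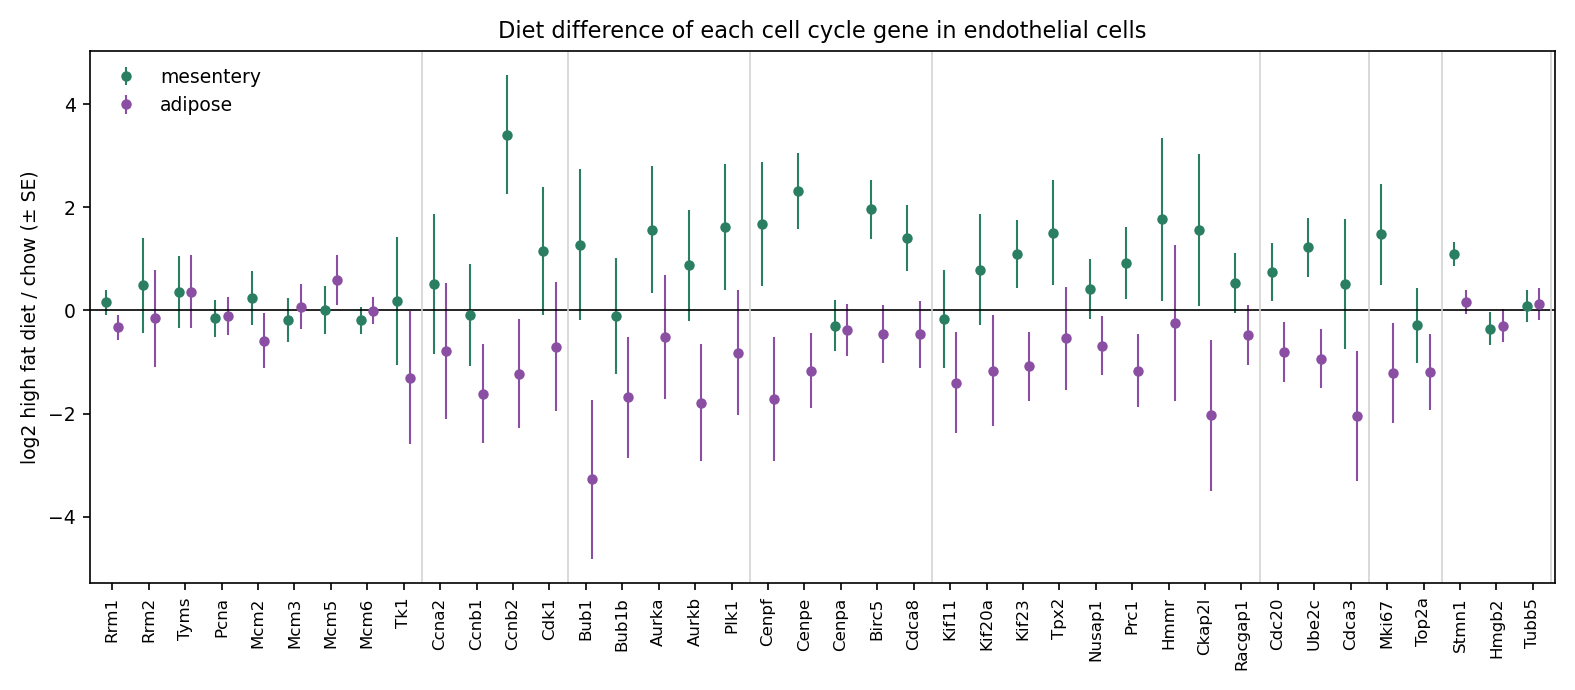
Fitted log2 change on HFD (edgeR, no block) for each of the 40 genes in endothelial cells of mesentery and fat, ordered by role, with SE bars. Most mitotic genes lie above 0 in mesentery (median 0.64 over the 40) and below 0 in fat (median -0.75), with wide bars.

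Mki67 stood at 2.50 and 4.85 CPM in endothelial cells of mesentery on chow (runs A and B), 12.0 and 8.94 on HFD, 7.61 and 16.7 in fat on chow and 0.48 and 8.82 on HFD. HFD libraries were above chow in mesentery without overlap, and in fat they overlapped. The fitted log2 change was 1.48 ± 0.98 (SE) in mesentery and -1.21 ± 0.97 in fat, and the interaction 2.69 ± 1.38 (adjusted p = 1.00). Top2a was at 12.7 and 8.16 in mesentery on chow, 6.42 and 10.9 on HFD, 9.99 and 15.7 in fat on chow and 1.45 and 8.63 on HFD. It divided the groups only in fat.

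Birc5 was at 1.35 and 2.40 CPM in mesentery on chow, 8.02 and 6.95 on HFD, 4.28 and 5.83 in fat on chow and 1.93 and 4.90 on HFD. Its groups did not overlap in mesentery but did in fat, and its mesentery change was 1.96 ± 0.57 (log2; unadjusted p = 0.0134 by edgeR's quasi-likelihood test, adjusted p = 1.00). Cenpe, a kinesin of the kinetochore, stood at 0.77 and 1.71, 9.23 and 3.85, 7.13 and 4.90, and 1.45 and 3.40 CPM in the same order. It was higher on HFD in mesentery and lower in fat in both runs, without overlap in either, and its interaction of 3.49 ± 1.03 had an adjusted p of 1.00. Ccnb2, cyclin B2, was at 0 and 0.96 CPM in mesentery on chow, 7.62 and 4.61 on HFD, 14.7 and 4.61 in fat on chow and 3.38 and 4.38 on HFD. Bub1 stood at 0 and 0.53, 0.80 and 0.76, 5.71 and 1.22, and 0 and 0.46 CPM, which rests on a few UMIs per library. Cdca8 was at 1.92 and 2.08, 8.02 and 3.03, 3.81 and 2.93, and 1.93 and 2.61 CPM. Ube2c, the ubiquitin-conjugating enzyme of the anaphase-promoting complex, was at 0.96 and 2.29, 3.61 and 4.20, 4.76 and 5.90, and 1.93 and 3.27 CPM. Ccnb1, cyclin B1, was at 0.96 and 0.53, 0.40 and 0.89, 4.28 and 1.51, and 0.48 and 1.11 CPM, lower on HFD in fat without overlap.

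Stmn1, which destabilises microtubules and is among the broadly expressed genes, gave the lowest p of the mesentery comparison. It stood at 39.4 and 47.9 CPM on chow and 93.9 and 95.5 on HFD, without overlap, and at 56.1 and 45.7 against 48.3 and 61.2 CPM in fat, with overlap. The mesentery change was 1.10 ± 0.24 (log2; unadjusted p = 0.00312 by edgeR's quasi-likelihood test, adjusted p = 1.00; 0.126 with run as a block). Hmgb2 was at 184.3 and 112.1, 117.2 and 122.2, 143.2 and 137.9, and 106.7 and 113.6 CPM in the 4 groups. Tubb5 ranged over 291 to 397 CPM, and its fitted changes were 0.08 ± 0.31 in mesentery and 0.12 ± 0.31 in fat.

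Among replication genes, Tyms was at 29.4 and 16.1 CPM in mesentery on chow, 40.5 and 20.2 on HFD, 41.9 and 14.8 in fat on chow and 45.9 and 24.4 on HFD, and run A was the higher run in all 4 groups. Pcna ran the other way in each group, at 30.5 to 54.7 CPM in run A and 56.0 to 62.5 in run B. Mcm6, a helicase subunit, lay between 16.9 and 27.1 CPM with changes of -0.19 ± 0.26 in mesentery and -0.01 ± 0.26 in fat. Rrm2, the regulated subunit of ribonucleotide reductase, stood at 0.40 to 4.13 CPM and overlapped in both tissues. Cdk1 was at 1.35 and 1.81 CPM in mesentery on chow, 1.20 and 5.71 on HFD, 3.33 and 3.61 in fat on chow, and 0 and 3.59 on HFD.

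Single endothelial classes were fitted with run as a block, a choice made after seeing the data. In arterial-like cells of fat, 5 of 19 tested genes fell on HFD, against 0.346% of all genes. Mki67 fell by 5.79 ± 0.74 on the log2 scale (edgeR adjusted p = 0.000279), Cenpf, a kinetochore protein, by 6.33 ± 1.04, Top2a by 4.08 ± 0.70, Prc1 by 3.89 ± 0.64 and Ube2c by 4.15 ± 0.84. These came from 1 library: Mki67 UMIs in arterial-like cells of fat numbered 0 and 148 on chow (runs A and B) and 0 and 2 on HFD, and the 148 were in 9 of 681 barcodes. Without the block, without the chow library of run B or without the HFD library of run B, 0 were called. In lymphatic-like cells, 1 of 14 tested genes, Stmn1, rose on HFD in mesentery by 1.11 ± 0.27 (edgeR adjusted p = 0.0332; 2.44% of all genes were called). It stood at 37.9 and 83.5 CPM on chow and 134.8 and 128.5 on HFD; 0 were called without the HFD library of run A or without the block. On chow, 4 genes were lower in mesentery than in fat in these cells (1.88% of all genes), led by Mki67 (-5.02) and Prc1 (-6.67), and 0 were called without the run B chow library of either tissue or without the block. Few lymphatic-like barcodes held many of the genes. On chow, the larger lymphatic-like cluster held 142 and 231 mitotic UMIs in fat (runs A and B). Only 2 and 1 of its barcodes there had 10 or more genes. In mesentery it held 38 and 20 mitotic UMIs, with 0 such barcodes in either run. The part of single barcodes in the calls was not tested. For diet, 0 of 16 tested genes were called in capillary-like cells by edgeR, against 0.917% of all genes in mesentery and 1.26% in fat. In each tissue 3 were at an unadjusted p under 0.05. In venous-like cells 0 of 12 were called, against 0.160% and 0.0846% of all genes, with 0 and 1 at an unadjusted p under 0.05; DESeq2 was not run on single classes.

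Over all cells the sum was highest in 1 library. The 28 mitotic genes summed to 94.3 and 103.0 CPM in mesentery on chow, 179.0 and 203.8 on HFD, 115.3 and 154.3 in fat on chow and 46.0 and 248.2 on HFD. The last library held 532 macrophage-like cells of 4255 and 64 of the 84 barcodes there with 10 or more genes were of that class. All 10 macrophage markers were detected in it and summed to 10043 CPM, against 365 CPM in the run A library of the same group and 75.2 to 311 CPM in the chow libraries. In mesentery, too, the macrophage markers were higher with HFD over all cells, at 75.2 and 296 CPM in run A and 260 and 2981 in run B, and macrophage-like cells numbered 0 and 8 in run A and 30 and 124 in run B. The part of these cells in the all-cell differences was not tested. In all cells 31 of 40 genes were higher on HFD in both runs of mesentery (24.7% of all genes) and none were lower (27.4%), while in fat 8 were higher (17.2%) and 6 lower (30.8%).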

How the data were processed

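The data were UMI counts per gene and barcode from 8 droplet 3′ libraries, filtered matrices deposited by the authors and written by Cell Ranger 3.0.2 (run A) and 5.0.0 (run B), per the file headers. The genome build was mm10 and Seurat 4.3.0 was used, per the submitters' processing notes. UMI counts are not scaled by gene length. Barcodes with at least 500 UMIs, 300 genes and at most 10% mitochondrial UMIs were kept (23970), and 754 called doublets (3.15%) were removed. The caller's automatic threshold marked 30, so its threshold was reset from the expected rate, after the scores were seen. Clusters (2000 variable genes without any cell cycle gene, 30 components, Leiden resolution 1.0, scanpy 1.11.5, Python 3.11.15) were named from marker lists. Members were counted by detection at full depth and thinned to 1000 UMIs.

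UMI counts were summed per library and class and fitted in R 4.3.3 with edgeR 4.0.16 (quasi-likelihood, TMM, Benjamini-Hochberg), with DESeq2 1.42.0, RLE size factors, a replicate block, no filter on low counts, no mitochondrial limit, doublets kept and leaving out each library as alternatives. Scripts were tested on simulated data with the spread of these libraries: the fit without the block did not call the changes placed there, whereas the fit with the block recovered most of them, so an absence of calls without the block says nothing about an absence of change. Nothing says the 2 pools of a group are more than repeats of the experiment, and p-values measure only the spread between them. The run letters mark a repeat of the experiment and pair the samples: deviations of run A libraries correlated at 0.49 to 0.66 over all cells and 0.61 to 0.75 over endothelial cells. The members, lists and class comparisons were chosen with earlier results of these data known. Members given library by library were 13 picked by role, plus the 2 with the smallest p in each comparison; of the genes outside the lists, the 10 with the largest ratio among those higher in every library and with at least 50 counts. Of called doublets 15.6% had 5 or more members, against 6.97% of cells kept. Their median depths were 6165 and 3377.5 UMIs, and 1.19% and 0.991% had 10 or more members. Confidence intervals are exact binomial at 95%; the limit beside a count of 0 is 3 counts of the total.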

Additional observations from a re-analysis of the deposited data

Results flagged for a closer look

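In endothelial cells the diet difference ran one way in mesentery and the other in fat for several summaries. For the 28 mitotic genes summed, the mesentery log2 difference exceeded that in fat by 1.98, and the libraries of each run moved opposite ways in the 2 tissues; this difference was not tested. For the share of barcodes with 10 or more genes it exceeded it by 1.11 percentage points, for 5 or more without the 4 broadly expressed genes by 1.43, and for the thinned share by 0.601, all untested. Among genes that moved opposite ways in both runs, the fitted interaction was 2.69 for Mki67, 2.41 for Birc5, 2.17 for Ube2c, 4.54 for Bub1, 3.49 for Cenpe, 4.63 for Ccnb2 and 1.87 for Cdca8, and none passed edgeR's test after adjustment. In lymphatic-like cells with run as a block, the interaction of Top2a was 6.35 (edgeR adjusted p = 0.0306); 0.113% of genes were called there, and Top2a was lost without the chow library of run B of either tissue, without the fat high fat library of run B and without the block. Top2a counts in those cells were 0 to 33 UMIs per library. The larger lymphatic-like cluster had 0 to 5 barcodes with 10 or more genes in a library.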

How the results depend on the processing

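With run as a replicate block, 0 of 40 genes were called in every comparison of diet, tissue and interaction over all and all endothelial cells, as without it. Of the alternatives planned, 208 values stayed on their side of the threshold or within the spread and 4 moved. They included counts of members called for diet, tissue and interaction. The fit without the block called no gene there, so a count staying at 0 shows nothing. Without any 1 library, the HFD minus chow share of endothelial barcodes with 5 or more genes changed sign. It ranged from -0.292 to 5.57 percentage points in mesentery and from -5.48 to 2.53 in fat. For macrophage-like against endothelial cells 18 genes were called without a mitochondrial limit, and 16 to 38 when libraries were left out in turn. For lymphatic-like against blood endothelial cells 4 were called without a filter on low counts and 5 by DESeq2. Alternatives added after seeing the data moved the diet difference in endothelial mitotic CPM. In mesentery it was 55.0, and without cluster 1 73.5. With cluster 3 (lymphatic-like) left out it was 4.10, the mean of -33.9 in run A and 42.2 in run B. With cluster 24 (Prnd, Apln) left out it was 37.6. The sums (chow, HFD) were then 83.2 and 150.5 CPM in run A and 79.0 and 87.0 in run B. In fat it was -83.2, and -109.5 without cluster 2. Leaving out barcodes with 10 or more genes, which were chosen by these same genes and so test nothing, gave -0.102 in mesentery (run A -10.5, run B 10.3) and -6.76 in fat (run A -22.4, run B 8.84). Without the 3 unnamed clusters that met another marker list it was 54.1 in mesentery and -73.9 in fat. Leaving out 1 library gave 40.9 to 69.0 in mesentery and -108.3 to -58.2 in fat. The cause was not tested, beyond fewer barcodes in each. The fewer cells of run A limit the detection of rare cells.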
